A study of Homo sapiens with 4 samples.

Results

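The tripartite motif (TRIM) genes were followed in MHCC97H cells, an established human hepatocellular carcinoma (HCC) line, after knockdown of UBXN1. Members were the protein-coding genes whose symbol is TRIM and a number and whose counts summed to at least 20 over all 4 libraries. This rule kept 52 of 67 such genes, out of 61541 genes and 19967 protein-coding genes in the deposited table. Of these 52, 51 passed the filter on low counts and were tested. The control group was the line carrying a control short hairpin RNA (shCon, 2 libraries) and the other group was the line carrying a hairpin against UBXN1 (shUBXN1, 2 libraries). The labels call the controls shCon whereas the study's methods speak of shRFP, the hairpins were delivered from the lentiviral vector pLKO.1, and no source used here says which UBXN1 hairpin was sequenced. Nothing says that the replicates came from separate cultures, so the p-values measure only the spread between these libraries.

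A TRIM protein carries, from its amino terminus, a RING finger, B-boxes and a coiled coil, followed by a carboxy-terminal part that differs between members and sorts them into classes C-I to C-XI. The RING finger recruits an E2 enzyme charged with ubiquitin, so most TRIM proteins act as E3 ubiquitin ligases, and the carboxy terminus (a PRY-SPRY domain, NHL repeats, a PHD finger with a bromodomain, a COS box) chooses the target. Members are known for restriction of retroviruses and for the RIG-I and interferon pathways, for silencing of chromatin, and for work on microtubules and muscle filaments. The name is not the activity, since 5 of the 52 members lack the RING finger. The values here are of RNA, and ligase activity was not measured.

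The libraries held 23373700 to 27380508 counts. UBXN1, the targeted gene (chromosome 11, 62676498 to 62679117, minus strand), stood at 67.1 and 77.3 CPM (counts scaled to the library size) in shCon and 16.8 and 18.5 CPM in shUBXN1, which is 24.5% of the control level (log2 fold change -2.03, SE 0.10, edgeR adjusted p = 9.98e-10). Of 9 hepatocyte and HCC markers, 2 rose and 5 fell, and their summed level, per transcript length, was 5390 to 5440 TPM in shCon and 4640 to 5050 TPM in shUBXN1. Among all genes tested, 28.0% were called higher and 28.2% lower. KRT8 and KRT18, epithelial keratins, carried most of the summed level, and KRT8 fell while KRT18 rose. SERPINA1 was the other marker that rose (log2 fold change 0.40). ALB, albumin, fell from 479 and 403 counts to 104 and 112, and APOB, TTR and HNF4A fell as well. The 4 leukocyte markers summed to 99.5 to 103 TPM in shCon and 84.2 to 94.0 TPM in shUBXN1. Most of this was CD68, at 98.4 and 102 TPM in shCon and 92.7 and 83.2 TPM in shUBXN1. CD68 was called lower (edgeR adjusted p = 0.0106) and CD14 was not called. CD3E was at 0 and PTPRC at 4 counts or fewer in every library. The 3 endothelial markers summed to 9.90 to 10.1 and 12.6 to 14.0 TPM, with PECAM1 called higher, VWF not called and CDH5 at 3, 6, 0 and 0 counts. The 4 fibroblast markers summed to 0.667 to 0.828 and 1.23 to 1.25 TPM, with COL1A1 called higher (10 and 4 counts to 58 and 59), DCN called lower (17 and 13 counts to 2 and 1) and ACTA2 at 0, 0, 3 and 4 counts. Mitochondrial RNA took 5.28% and 5.59% of counts in shCon and 7.43% and 8.27% in shUBXN1, and the part of these differences in the results below was not tested.

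TRIM genes moved in both directions after UBXN1 knockdown, and their median lay near 0. Of the 51 members tested, 15 (29.4%) were higher in shUBXN1 at an adjusted p under 0.05, beside 28.0% of all 16863 genes tested, and 13 (25.5%) were lower, beside 28.2% of all genes. These shares lay near the background, and counts by class, list and region below stand beside the same shares of all genes. In bulk RNA, fewer cells that express a gene and less RNA per cell cannot be told apart. At a fold of 2 or more with an unadjusted p under 0.05, the thresholds of the study's methods, 4 members (7.84%) were higher, beside 11.8% of all genes, and 1 (1.96%) was lower, beside 6.09%. The libraries of the groups did not overlap for 22 members that were all higher (43.1%, beside 39.4%) and 21 that were all lower (41.2%, beside 38.6%), and they overlapped for 8. The median log2 fold change of the members was -0.01, beside 0.02 over all genes tested, and 32 members lay within 0.5 of 0. Of the 28 called members, 53.6% were higher, and this split moved with the processing, since scaling to the total count gave 17 higher and 9 lower (65.4% higher), limma on log2(TPM + 1) gave 16 and 9 (64.0%), and removing the trend on GC content gave 10 and 16 (38.5%).

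**Figure D1:**
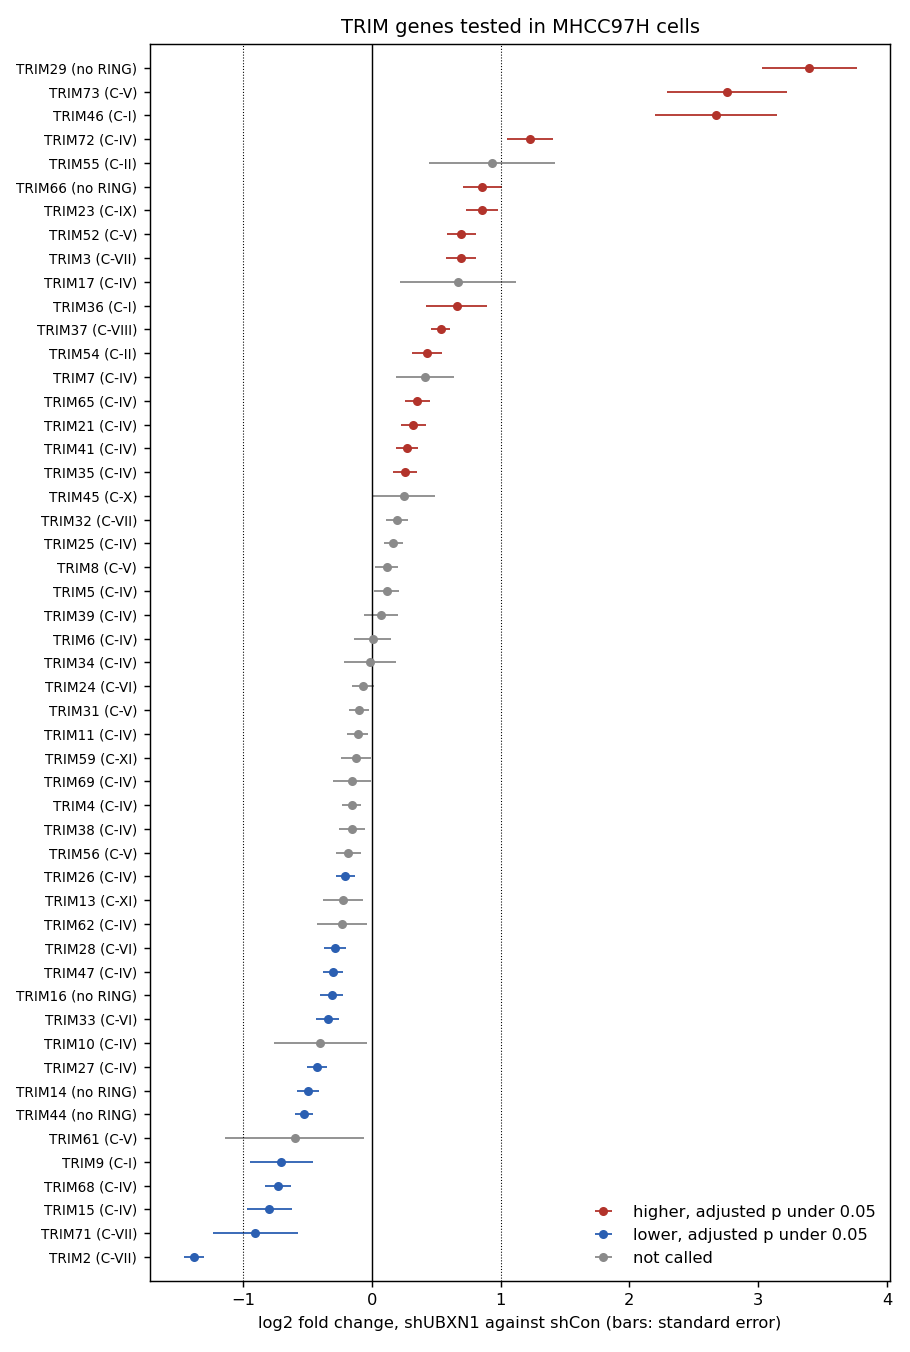
Log2 fold change of shUBXN1 against shCon for each of the 51 TRIM genes tested (x axis; bars, standard error), ordered by size, with the class of the protein after each symbol and dotted lines at a fold of 2. TRIM29, TRIM73, TRIM46 and TRIM72 lie past a fold of 2 on the higher side and TRIM2 on the lower side, while 32 members lie within 0.5 of 0.

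The family's level was carried by a few genes. In TPM the 52 members summed to 1430 and 1425 in shCon and 1394 and 1374 in shUBXN1. In counts they took 0.235% and 0.238% of the shCon libraries and 0.229% and 0.227% of the shUBXN1 libraries. The 5 most abundant were TRIM28 at a mean of 268 TPM over the 4 libraries, TRIM47 at 157, TRIM16 at 119, TRIM25 at 113 and TRIM31 at 94.0 TPM. Together they made 54.5% and 55.9% of the family's TPM in shCon and 50.2% and 52.9% in shUBXN1. Members at 1 TPM or more numbered 43 in each shCon library and 47 and 46 in the shUBXN1 libraries.

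Changes are set out by level, as all genes differed with it. Over all genes tested, 28.3% were higher and 11.1% lower under 5 TPM, and 25.8% were higher and 42.9% lower at 20 TPM or more. Of the 16 tested members under 5 TPM, 6 rose and 2 fell, with a median log2 fold change of 0.54, beside a median of 0.30 over 5973 genes at that level. Between 5 and 20 TPM, 4 of 18 rose and 5 fell, beside 30.9% and 29.7% of 4426 genes. At 20 TPM or more, 5 of 17 rose and 6 fell with a median of -0.11, beside -0.12 over 6464 genes. All 4 members called higher at 2-fold were among the low genes, where 23.6% of all genes were called higher at 2-fold. Among these 4, TRIM29, TRIM46 and TRIM73 passed the filter on low counts only through the shUBXN1 libraries. The part of level in the single results was not tested.

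**Figure D2:**
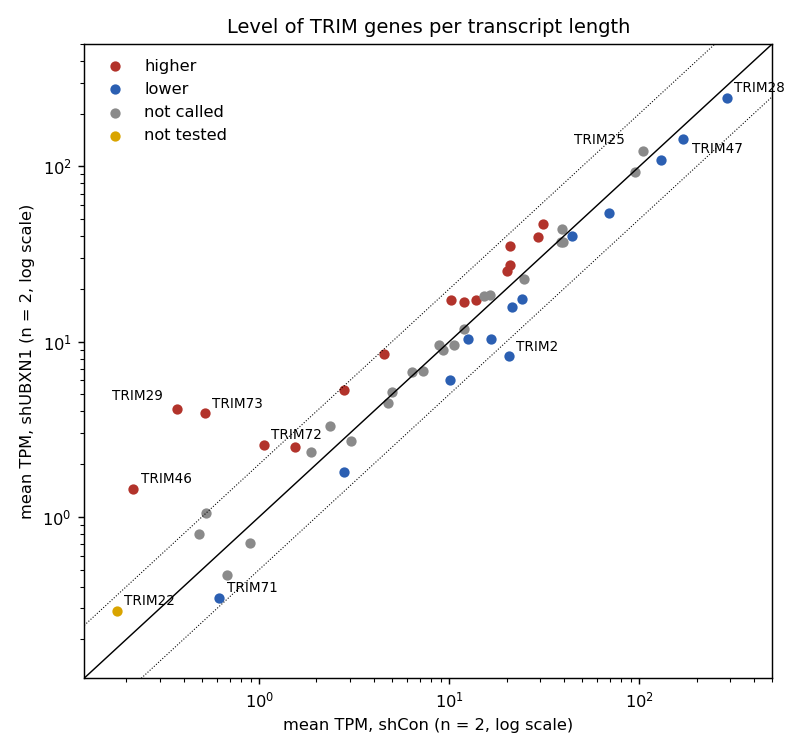
Mean TPM of each of the 52 TRIM genes in shCon (x axis) and shUBXN1 (y axis), 2 libraries per group, both axes on a log scale; colours give the call at an adjusted p under 0.05, the solid line marks equal levels and the dotted lines a fold of 2. The 4 genes above the upper dotted line that were called higher lie at 1.06 TPM or less in shCon, and the most abundant genes lie close to the line of equal levels.

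TRIM29, also known as ATDC, lacks the RING finger and is a DNA damage and epithelial cell factor. Its gene lies on chromosome 11 (120111286 to 120185529, minus strand). TRIM29 stood at 0.713 and 0.383 CPM in shCon and 4.44 and 7.35 CPM in shUBXN1. Both knockdown libraries were above both controls, the mean being 0.548 ± 0.233 CPM in shCon and 5.90 ± 2.05 CPM in shUBXN1 (SD, n = 2). The fitted fold was 10.5 (log2 fold change 3.39, SE 0.37, edgeR adjusted p = 2.59e-06). It rested on 19 and 9 counts in shCon against 110 and 172 in shUBXN1.

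TRIM46, a class C-I protein of the axon initial segment that orders parallel microtubules, lies on chromosome 1 (155173787 to 155184971, plus strand). It stood at 0.225 and 0.468 CPM in shCon and 1.90 and 2.52 CPM in shUBXN1. The groups did not overlap, with a fitted fold of 6.38 (log2 fold change 2.67, SE 0.47, edgeR adjusted p = 2.48e-04), from 6 and 11 counts in shCon and 47 and 59 in shUBXN1.

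TRIM73, one of the near-identical genes of the Williams syndrome region, lies on chromosome 7 (75395063 to 75410996, plus strand). It stood at 0.474 and 0.204 CPM in shCon and 2.85 and 2.04 CPM in shUBXN1, a fitted fold of 6.78 (log2 fold change 2.76, SE 0.47, edgeR adjusted p = 1.63e-04). Its identity is uncertain, since 84.0% of its stretches of 100 bases are shared with TRIM74, to which the table gives 3.14 counts in all. With both genes summed the log2 fold change was 2.55 (SE 0.47, edgeR adjusted p = 3.75e-04), and that of TRIM73 alone was 3.49 without shCon replicate 1 and 2.30 without shCon replicate 2. On the log2(TPM + 1) scale, which shrinks changes of low genes, the log2 fold changes of TRIM29, TRIM46 and TRIM73 were 1.88, 1.01 and 1.68, and a minimum of 10 counts in every library left all 3 untested.

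TRIM72, or MG53, takes part in the resealing of the muscle cell membrane and carries a PRY-SPRY domain. Its gene lies on chromosome 16 (31214119 to 31231537, plus strand). TRIM72 stood at 4.46 and 4.43 CPM in shCon and 9.17 and 11.7 CPM in shUBXN1. The controls were nearly equal and both knockdown libraries were higher, with a fitted fold of 2.34 (log2 fold change 1.23, SE 0.18, edgeR adjusted p = 4.18e-05). On the log2(TPM + 1) scale the difference was 0.79.

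TRIM2, an E3 ligase for the neurofilament light chain, was the only member called lower at 2-fold, and the one with the smallest p of the family. Its gene lies on chromosome 4 (153152163 to 153339319, plus strand). TRIM2 stood at 70.8 and 72.8 CPM in shCon and 27.3 and 27.8 CPM in shUBXN1. The replicates of each group lay close together and the level was 2.60-fold lower after knockdown (log2 fold change -1.38, SE 0.08, edgeR adjusted p = 4.92e-09). It kept its call in all the alternatives run, where the log2 fold change ran from -1.41 to -1.23. Of its stretches of 100 bases, 32.3% are shared with an overlapping gene model, so some reads could have been divided.

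**Figure D3:**
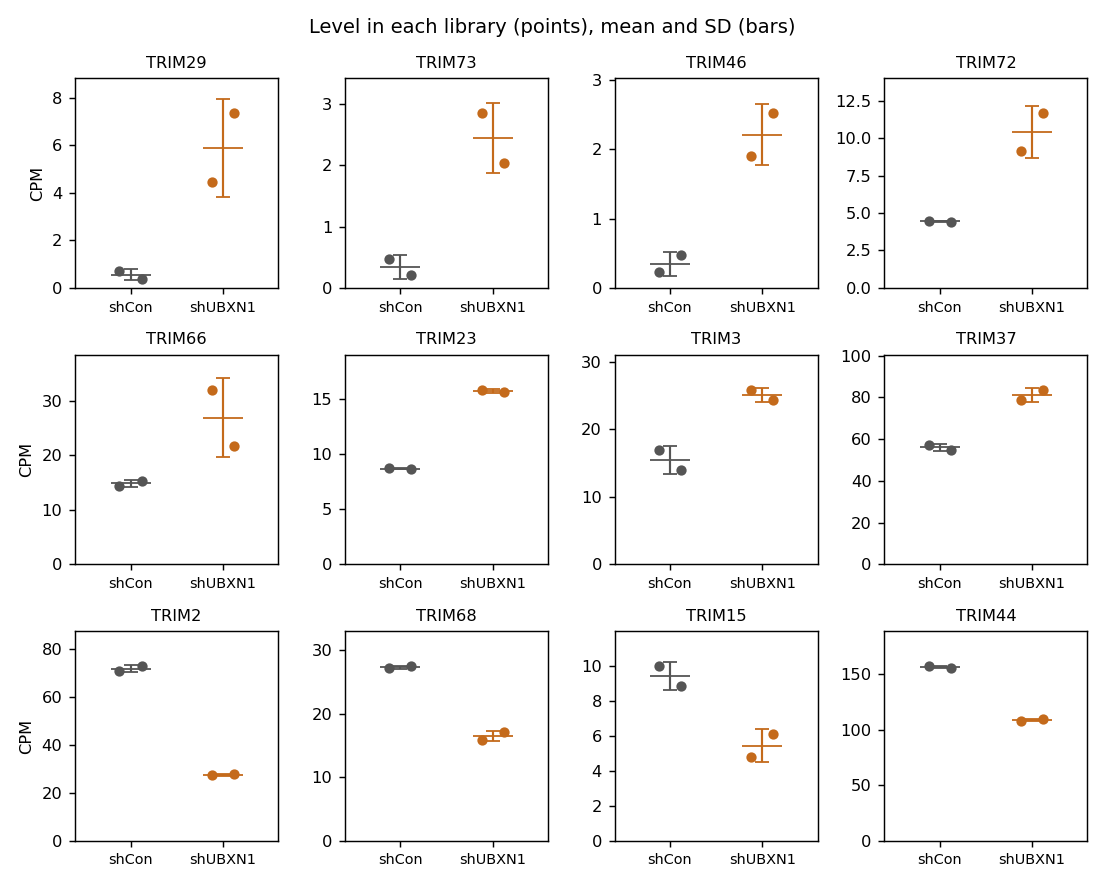
Level of 12 TRIM genes in each library (points, CPM on a linear axis from 0), with the mean and SD of each group (bars, n = 2). In all 12 panels both shUBXN1 libraries lie on the same side of both shCon libraries, higher in the upper 8 panels and lower for TRIM2, TRIM68, TRIM15 and TRIM44. All 12 genes shown are called members, so the lack of overlap is not a further result. Of all genes tested, 39.4% were higher and 38.6% lower without overlap.

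TRIM2 belongs to class C-VII, whose NHL repeats form a propeller that binds RNA or protein. The 4 members of the class did not move as one. In it 1 rose, 2 fell and 1 was not called, beside 28.0% higher and 28.2% lower of all genes. TRIM3, a neuronal ligase close to TRIM2, stood at 17.0 and 14.0 CPM in shCon and 25.9 and 24.4 CPM in shUBXN1, a rise of 0.69 on the log2 scale (SE 0.11, edgeR adjusted p = 1.36e-04). TRIM3 and TRIM2 thus changed in opposite directions. TRIM71, or LIN41, a stem cell factor held down by let-7, was rare, at 2.96 and 2.38 CPM in shCon and 1.62 and 1.24 CPM in shUBXN1. Its log2 fold change was -0.90 (SE 0.33, edgeR adjusted p = 0.0305), and this call ended in 5 alternatives, including DESeq2 (adjusted p = 0.0929) and the fit without shCon replicate 1 (adjusted p = 0.209) or without shUBXN1 replicate 2 (adjusted p = 0.104). TRIM32, the gene of a limb-girdle muscular dystrophy, had a log2 fold change of 0.20 and was not called (edgeR adjusted p = 0.0726).

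Class C-VI, as sorted here, holds TRIM24, TRIM28 and TRIM33, nuclear proteins with a PHD finger and a bromodomain that act on chromatin. Of its 3 members, 2 fell and 1 was not called, beside 28.0% higher and 28.2% lower of all genes. Members without a RING finger were sorted apart, whatever their carboxy terminus. Among them is TRIM66, another chromatin protein, which rose (log2 fold change 0.86). TRIM28, or KAP1, the corepressor of KRAB zinc finger proteins, was the most abundant TRIM gene (chromosome 19, 58544064 to 58550722, plus strand), at 468 and 501 CPM in shCon and 373 and 424 CPM in shUBXN1. It fell by 0.28 on the log2 scale (SE 0.08, edgeR adjusted p = 0.0107), and the groups did not overlap. The call ended without shCon replicate 2 (adjusted p = 0.227), while removing the GC trend gave -0.59. TRIM33, or TIF1-gamma, a partner of SMAD proteins (chromosome 1, 114392790 to 114511203, minus strand), stood at 53.6 and 50.5 CPM in shCon and 43.9 and 38.3 CPM in shUBXN1. It fell by 0.34 (SE 0.09, edgeR adjusted p = 0.00393), a call that was lost under total count scaling (adjusted p = 0.0527) and on the log2(TPM + 1) scale (adjusted p = 0.142). TRIM24, or TIF1-alpha, a coregulator of nuclear receptors (chromosome 7, 138460259 to 138589996, plus strand), stood at 51.0 and 50.0 CPM in shCon and 44.3 and 52.2 CPM in shUBXN1. Its groups overlapped (log2 fold change -0.07, SE 0.09, edgeR adjusted p = 0.537), its sign turned under total count scaling (0.01) and without shUBXN1 replicate 1 (0.04), and it was called lower without shUBXN1 replicate 2 (-0.20, adjusted p = 0.0400).

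Genes known to work with TRIM24, TRIM28 and TRIM33 were described from a list of 11. Of these, 2 rose, 5 fell and 4 were not called, beside 28.0% higher and 28.2% lower over all genes tested. The largest rise was that of SETDB1, the histone methyltransferase that TRIM28 recruits (log2 fold change 0.33, SE 0.07, edgeR adjusted p = 0.00165). The largest fall was that of MDM2, a ligase that binds TRIM28, with a log2 fold change of -0.61 (SE 0.08, edgeR adjusted p = 1.45e-05). The other genes that fell were CBX1, CBX3 and CBX5, the heterochromatin proteins, and CHD3, and CHD4 also rose.

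Classes C-I and C-II share the COS box, through which the proteins bind microtubules. All 3 members of C-I were called, TRIM46 and TRIM36 higher and TRIM9 lower, beside 28.0% higher and 28.2% lower of all genes. TRIM36 stood at 2.93 and 3.28 CPM in shCon and 4.24 and 5.55 CPM in shUBXN1 (log2 fold change 0.66, SE 0.24, edgeR adjusted p = 0.0296). TRIM9, a neuronal ligase, stood at 4.84 and 4.38 CPM in shCon and 3.23 and 2.43 CPM in shUBXN1 (log2 fold change -0.70, SE 0.24, edgeR adjusted p = 0.0249). Both calls ended with DESeq2 (adjusted p = 0.0932 and 0.0803) and without shCon replicate 1 or shUBXN1 replicate 2, that of TRIM9 also under total count scaling (adjusted p = 0.0667) and on the log2(TPM + 1) scale (adjusted p = 0.0700). MID1, a C-I gene that keeps its own name, fell from 51.9 and 53.7 CPM to 25.4 and 25.6 CPM (log2 fold change -1.05, SE 0.08, edgeR adjusted p = 1.05e-07). Of 6 TRIM genes that go by other names, 4 were tested, and MID1 was the only one called. The remaining 3 were MID2 (0.10), PML (-0.02) and TRIML2 (-1.17), none of them called. In C-II, which holds the muscle ring finger proteins of the sarcomere, TRIM54 rose by 0.43 (edgeR adjusted p = 0.00668), which removing the GC trend brought to 0.20 (adjusted p = 0.180), and TRIM55 had a log2 fold change of 0.93 and was not called (edgeR adjusted p = 0.118). TRIM55 stood at 0.675 and 0.724 CPM in shCon and 1.86 and 0.812 CPM in shUBXN1, its log2 fold change ran from 0.21 to 1.39 over the alternatives, and it was called higher without shUBXN1 replicate 2.

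The 5 members without a RING finger were all called, 2 higher and 3 lower. Calls were common over all genes tested, with 28.0% higher and 28.2% lower. TRIM66, a chromatin protein of the testis, rose beside TRIM29, from 14.3 and 15.3 CPM to 32.0 and 21.7 CPM (log2 fold change 0.86, SE 0.15, edgeR adjusted p = 2.18e-04). The shUBXN1 libraries of TRIM66 differed from each other by more than those of shCon, and without shUBXN1 replicate 1 the log2 fold change was 0.55. TRIM44, which has a zinc finger of the deubiquitinase type in place of the RING, stood at 157 and 155 CPM in shCon and 108 and 109 CPM in shUBXN1, a fall of 0.52 (SE 0.07, edgeR adjusted p = 2.26e-05). TRIM16, which works with galectins at damaged lysosomes (chromosome 17, 15627960 to 15684311, minus strand), stood at 185 and 191 CPM in shCon and 137 and 166 CPM in shUBXN1. It fell by 0.31 (SE 0.09, edgeR adjusted p = 0.00790), by 0.18 without shUBXN1 replicate 1 and by 0.47 without shUBXN1 replicate 2, and the call ended without shCon replicate 2 (adjusted p = 0.0785). Of its stretches of 100 bases, 45.6% occur in other genes, most of them (37.7% of all) in an overlapping gene model on the same strand. Summed with the copy TRIM16L, which leaves that overlap in place, the log2 fold change was -0.30 (SE 0.08, edgeR adjusted p = 0.00716). TRIM14 is given with the interferon-inducible genes.

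Interferon-inducible TRIM genes were described from a list of 9, of which TRIM22 was not tested. Of the 8 tested, 1 rose, 2 fell and 5 were not called, beside 28.0% higher and 28.2% lower of all genes. The called genes did not share a direction. Promoters of interferon-induced genes often carry an interferon-stimulated response element, whose core has the letters GAAANNGAAA, or TTTCNNTTTC on the other strand. In the RefSeq promoters of GRCh38.p14, which run from 250 bases before to 50 bases after the gene start, this core was in 5 of the 8 listed genes with a promoter (62.5%), in 4 of the 32 other members with one (12.5%) and in 4.38% of all 27305 genes. Among the 40 matched members it was in 22.5%, the others being TRIM2, TRIM16, TRIM44 and TRIM69. Shown are the listed genes with a match, so their likeness in the core comes from the choice. Of them 1 rose, 2 fell and 2 were not called. The calls of TRIM21 and TRIM26 did not hold in every alternative, and the part of the core in any change was not tested. Capitals mark the core on the gene's strand. Gene starts are those of RefSeq, which for TRIM5, TRIM26 and TRIM34 lie inside the longer GENCODE spans given for these genes. In TRIM21 and TRIM26 a pair of overlapping matches makes 1 longer run. A match is a run of letters and not a measured binding site.
TRIM21, chr11:4393663-4393692, minus strand, starting 17 bases after the gene start: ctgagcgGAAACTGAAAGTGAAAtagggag
TRIM5, chr11:5685082-5685111, minus strand, starting 27 bases before the RefSeq gene start: atagtttatcTTTCACTTTCctgccctgag
TRIM34, chr11:5624901-5624930, plus strand, starting 90 bases before a RefSeq gene start: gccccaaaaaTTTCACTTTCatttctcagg
TRIM14, chr9:98119229-98119258, minus strand, starting 26 bases before the gene start: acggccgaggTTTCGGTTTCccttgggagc
TRIM26, chr6:30213578-30213607, minus strand, starting 194 bases before the gene start: cgcctgaTTTCAGTTTCCATTTCgctgccc

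TRIM21, the cytosolic antibody receptor and autoantigen Ro52, was the 1 listed gene that rose. Its gene lies on chromosome 11 (4384897 to 4393702, minus strand). TRIM21 stood at 20.5 and 20.01 CPM in shCon and 24.8 and 25.8 CPM in shUBXN1 (log2 fold change 0.32, SE 0.10, edgeR adjusted p = 0.0116). The groups were apart, but the call ended with DESeq2 (adjusted p = 0.0565), after removal of the GC trend (adjusted p = 0.0730) and without shCon replicate 2 (adjusted p = 0.125).

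TRIM14, an adaptor of MAVS signalling without a RING finger, fell (chromosome 9, 98069275 to 98119222, minus strand). It stood at 45.5 and 49.9 CPM in shCon and 34.3 and 33.5 CPM in shUBXN1 (log2 fold change -0.49, SE 0.08, edgeR adjusted p = 1.83e-04), and its log2 fold change was -0.41 to -0.71 over all the alternatives run. TRIM26, a gene of the MHC region that targets nuclear IRF3 (chromosome 6, 30184455 to 30213427, minus strand), stood at 70.8 and 75.6 CPM in shCon and 62.3 and 64.8 CPM in shUBXN1. The fall of TRIM26 was small (log2 fold change -0.20, SE 0.08, edgeR adjusted p = 0.0327) and was not called in 6 alternatives, with adjusted p from 0.0504 to 0.320, among them total count scaling and leaving out shCon replicate 1, shCon replicate 2 or shUBXN1 replicate 1. It was -0.38 after removal of the GC trend.

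The other listed genes were not called. TRIM25, the ligase of RIG-I (chromosome 17, 56836387 to 56914080, minus strand), stood at 151 and 152 CPM in shCon and 163 and 177 CPM in shUBXN1. Its groups did not overlap, with a log2 fold change of 0.17 (SE 0.07, edgeR adjusted p = 0.0699), and it was called higher in 5 alternatives, the lowest adjusted p being 0.00327. TRIM5, which restricts retroviruses at the capsid (chromosome 11, 5663195 to 5938619, minus strand), stood at 22.8 and 23.9 CPM in shCon and 24.1 and 26.5 CPM in shUBXN1 (log2 fold change 0.12, SE 0.10, edgeR adjusted p = 0.333). TRIM56, a ligase tied to STING (chromosome 7, 101085481 to 101097967, plus strand), stood at 137 and 132 CPM in shCon and 133 and 104 CPM in shUBXN1 (log2 fold change -0.18, SE 0.10, edgeR adjusted p = 0.132). For TRIM56, shUBXN1 replicate 2 set the value, as the log2 fold change was -0.03 without it and -0.38 without shUBXN1 replicate 1 (adjusted p = 1.57e-05), and it was called lower in 4 alternatives.

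TRIM38, a negative regulator of toll-like receptor signalling (chromosome 6, 25962802 to 25991231, plus strand), stood at 21.9 and 22.9 CPM in shCon and 20.8 and 19.4 CPM in shUBXN1 (log2 fold change -0.16, SE 0.10, edgeR adjusted p = 0.209). TRIM34, a relative of TRIM5 (chromosome 11, 5619764 to 5644398, plus strand), stood at 7.24 and 5.11 CPM in shCon and 5.74 and 6.54 CPM in shUBXN1. Its groups overlapped (log2 fold change -0.01, SE 0.20, edgeR adjusted p = 0.959), its sign changed between alternatives, and 97.3% of its stretches of 100 bases belong also to the readthrough gene TRIM6-TRIM34. TRIM22, an interferon-induced antiviral ligase (chromosome 11, 5689610 to 5737089, plus strand), was the member just inside the limit of 20 counts. Its 5.71 and 7.04 counts in shCon and 11.4 and 7.98 in shUBXN1 were too few for the test.

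Genes of the interferon receptor and its transcription factors were described from a list of 9, all of them tested. Of these, 6 rose, 2 fell and 1 was not called, beside 28.0% higher and 28.2% lower over all genes tested. The largest rise was that of IRF9, the DNA-binding part of the interferon-stimulated factor, from 148 and 85.8 counts to 377 and 359 counts (log2 fold change 1.72, SE 0.18, edgeR adjusted p = 1.51e-06). The largest fall was that of IFNAR1, a chain of the type I receptor (log2 fold change -0.33, SE 0.08, edgeR adjusted p = 0.00411). STAT2, which binds IRF9, rose by 1.10 (SE 0.09, edgeR adjusted p = 1.58e-07).

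The largest class was C-IV, whose PRY-SPRY domain recognises proteins or RNA, with 24 members of which 23 were tested. Of these, 5 rose, 5 fell and 13 were not called, beside 28.0% higher and 28.2% lower of all genes. Their log2 fold changes ran from -0.79 to 1.23. Beside TRIM72 and TRIM21, those that rose were TRIM65, a ligase of MDA5 (0.35), TRIM41 (0.27) and TRIM35 (0.26). These 3 rises were no longer called after removal of the GC trend, where the log2 fold changes were 0.09, 0.09 and 0.11, nor without shCon replicate 2. Without shCon replicate 1, the calls of TRIM41 and TRIM35 ended as well, and that of TRIM35 also ended with DESeq2 (adjusted p = 0.103) and without shUBXN1 replicate 2 (adjusted p = 0.234).

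Beside TRIM26, the C-IV members that fell were TRIM15, TRIM68, TRIM27 and TRIM47. TRIM15, a focal adhesion protein, stood at 9.98 and 8.85 CPM in shCon and 4.77 and 6.11 CPM in shUBXN1 (log2 fold change -0.79, SE 0.18, edgeR adjusted p = 0.00152). TRIM68, a coactivator of the androgen receptor, stood at 27.2 and 27.5 CPM in shCon and 15.9 and 17.1 CPM in shUBXN1 (log2 fold change -0.73, SE 0.10, edgeR adjusted p = 2.72e-05). For both, the groups lay well apart beside the gap between replicates. TRIM27, first found as the RFP part of a RET fusion, fell by 0.42 (SE 0.08, edgeR adjusted p = 2.87e-04). TRIM47, the second in level (chromosome 17, 75874164 to 75878581, minus strand), stood at 188 and 196 CPM in shCon and 148 and 164 CPM in shUBXN1, a fall of 0.30 (SE 0.08, edgeR adjusted p = 0.00413). Removal of the GC trend gave -0.74 for TRIM47, the call ended without shCon replicate 2 (adjusted p = 0.105), and 51.6% of its exon bases are overlapped by a gene on the other strand.

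The C-IV members that were not called and are not described above ran in log2 fold change from -0.40 to 0.67. They were TRIM10 (-0.40), TRIM62 (-0.23), TRIM4 (-0.15), TRIM69 (-0.15), TRIM11 (-0.11), TRIM6 (0.01), TRIM39 (0.07), TRIM7 (0.41) and TRIM17 (0.67). The ends of this range were rare genes with wide errors, TRIM10 with an SE of 0.36 and TRIM17 with an SE of 0.45.

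Class C-V holds proteins with no further named domain. Of its 6 members, TRIM73 and TRIM52 rose and none fell, beside 28.0% higher and 28.2% lower of all genes. TRIM52 stood at 13.7 and 12.9 CPM in shCon and 22.3 and 20.8 CPM in shUBXN1 (log2 fold change 0.70, SE 0.11, edgeR adjusted p = 9.65e-05), and 27.6% of its exon bases are overlapped by a gene on the other strand. TRIM31, a ligase tied to MAVS and NLRP3 (chromosome 6, 30102897 to 30113090, minus strand) and the fifth in level, stood at 91.7 and 101 CPM in shCon and 89.2 and 90.7 CPM in shUBXN1. It was not called (log2 fold change -0.10, SE 0.08, edgeR adjusted p = 0.288), and neither were TRIM8 (0.12), TRIM56 and TRIM61 (-0.60). TRIM61, with 62 counts in all, was the next member inside the count limit, and TRIM67, with 10, was the first outside it. Of the other genes outside it, TRIM74, TRIM58, TRIM40 and TRIM50 had 1 to 3.14 counts and 10 were listed at 0.

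Several classes have 1 or 2 members here. TRIM37, the MATH domain ligase of the centrosome and of mulibrey nanism, rose from 57.2 and 54.8 CPM to 78.7 and 83.6 CPM (log2 fold change 0.54, SE 0.08, edgeR adjusted p = 3.33e-05). TRIM23, which carries a GTPase domain of the ARF family, rose from 8.74 and 8.68 CPM to 15.9 and 15.7 CPM (log2 fold change 0.86, SE 0.13, edgeR adjusted p = 4.73e-05). Their replicates lay closer together than the groups, and both were called higher in all the alternatives run. TRIM45, with a filamin domain (0.25), and the membrane-anchored TRIM13 (-0.22) and TRIM59 (-0.12) were not called.

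Many TRIM genes lie next to each other, and neighbours were compared in pairs of adjacent members less than 200000 bases apart. Of 11 such pairs, both genes were called in 3. In 2 of these pairs the genes moved together, TRIM41 with TRIM52 higher and TRIM15 with TRIM26 lower. In the remaining pair they moved apart, as TRIM47 fell and TRIM65 rose, with 1754 bases between them on the same strand of chromosome 17. The calls of TRIM26, TRIM41, TRIM47 and TRIM65 did not hold in every alternative. After removal of the GC trend the log2 fold changes of TRIM41 and TRIM65 were both 0.09. Wider regions were also counted. On 11p15, from 4384897 to 8682694, 3 of 7 tested members rose (TRIM3, TRIM21, TRIM66), 1 fell (TRIM68) and 3 were not called. The called genes there lie more than 200000 bases from any other member. The close neighbours TRIM6, TRIM34 and TRIM5 were those not called. On 6p, in and beside the MHC, none of 7 rose, TRIM15, TRIM26 and TRIM27 fell, and 4 were not called. TRIM27 and TRIM38 lie apart from the pairs there. These counts stand beside 28.0% higher and 28.2% lower over all genes tested.

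**Figure D4:**
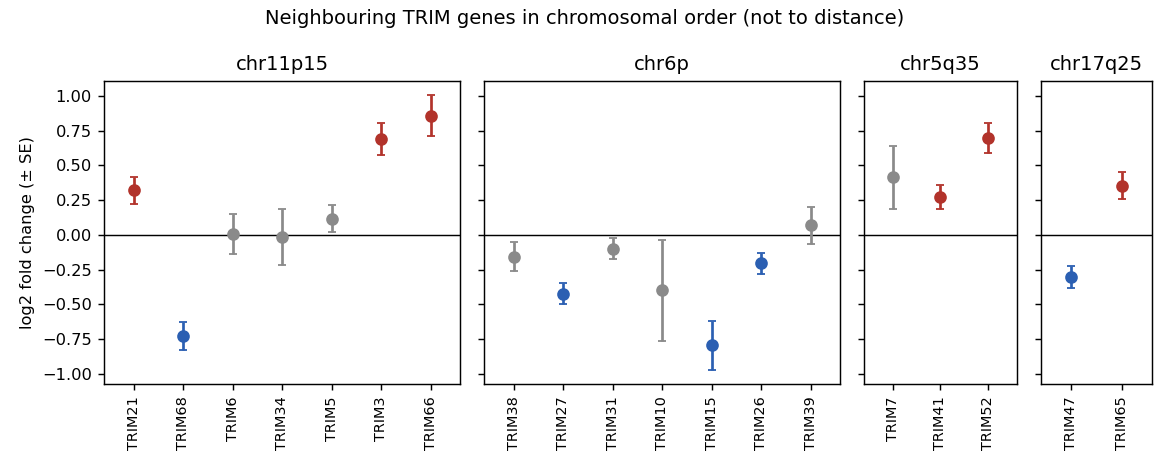
Log2 fold change (y axis; bars, standard error) of TRIM genes in 4 chromosomal regions, in the order of the genes and not to distance; red, higher, blue, lower, grey, not called at an adjusted p under 0.05. On 11p15 genes moved both ways, on 6p 3 genes fell and none rose, and TRIM47 and TRIM65 lie on opposite sides of 0. Of all genes tested, 28.0% were called higher and 28.2% lower.

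A TRIM ligase takes ubiquitin from an E2 enzyme that an E1 enzyme has charged. Of 16 E1 and E2 genes listed, 3 rose, 5 fell and 8 were not called. Over all genes tested, 28.0% were higher and 28.2% lower. The listed genes summed to 1700 and 1710 TPM in shCon and 1750 and 1730 TPM in shUBXN1. The largest rise was that of UBE2L6, an E2 that carries the ubiquitin-like ISG15 as well. It had 374 and 349 counts in shCon and 710 and 733 in shUBXN1 (log2 fold change 1.06, SE 0.10, edgeR adjusted p = 9.49e-07). The largest fall was that of UBE2E3, with 1647 and 1511 counts in shCon and 981 and 1059 in shUBXN1 (log2 fold change -0.57, SE 0.08, edgeR adjusted p = 4.70e-05). UBE2N and UBE2V1, which together build lysine-63 chains with several TRIM ligases, fell by 0.52 and 0.36. UBA1, the main E1 enzyme, rose by 0.22, and of the UBE2D enzymes only UBE2D4 was called, lower by 0.57.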

How the data were processed

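The 4 RNA libraries, 2 per group, were made from MHCC97H cells. Groups and replicate numbers came from the sample labels. By the study's methods, reads were paired-end and aligned with Hisat2 to GRCh38. The submitters' processing notes name HISAT2 2.0.4, StringTie 1.3.0 and GRCh37, so the build is not settled. The counting tool, the annotation release and the use of strand are not given in the sources used here. The authors deposited unnormalized expected counts, to 2 decimals, and a length for each gene. Gene symbols, biotypes, GC content and coordinates came from GENCODE release 44 on GRCh38, which matched 61369 of 61541 gene IDs.

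Counts were rounded, filtered with filterByExpr, scaled with TMM and tested over 16863 genes with the quasi-likelihood test of edgeR 4.0.16 in R 4.3.3, with Benjamini-Hochberg adjustment over all genes tested and no block. The standard error was the size of the log2 fold change over the root of F. CPM used the TMM-scaled library totals, and TPM used the deposited lengths. The test was run on simulated data first. Alternatives used DESeq2 1.42.0, limma 3.58.1 (voom, and log2(TPM + 1)), total count scaling, other filters, a replicate block, removal of the GC trend, a fold of 1.5 and each library left out. Unrounded counts and summed copies were added after seeing the data. Members of a pair or copy were compared by shared stretches of 100 bases and by exon overlap.

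Described in full were members past a fold of 2, the 5 highest in TPM, class C-VI and the interferon-inducible list. Of each pathway list, the largest rise and fall past the adjusted p were named, and others were named after their values were seen. The members and lists were chosen with earlier results of these data known, and some genes of the lists are not reported here. Promoters came from RefSeq (GRCh38.p14), and 12 of the 52 members had none in that table.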

Additional observations from a re-analysis of the deposited data

How the results depend on the processing

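Of 454 values over 35 genes in alternative fits, 398 kept the direction and side of the threshold of the reported fit, 38 lost a call, 10 gained one and 8 changed sign. Of 28 called members, 15 were called the same way in every alternative that tested them (9 higher, 6 lower). Sign changes among these 35 genes were those of TRIM24 and TRIM34, both uncalled. For TRIM24 the log2 fold change was 0.015 under total count scaling, and -0.205 to 0.043 with a library left out. For TRIM34 it was 0.069 under total count scaling, 0.054 on log2(TPM + 1) and 0.013 with at least 10 counts in every library. The value of TRIM34 was 0.0060 after removal of the GC trend, and -0.255 to 0.264 with a library left out. Uncalled members outside the 35 were not counted, and of them TRIM6, TRIM8 and TRIM39 also changed sign in some alternatives. The members' median log2 fold change of -0.01 became 0.069 under total count scaling, 0.0535 on log2(TPM + 1), -0.040 with at least 10 counts, -0.038 after removal of the GC trend, and -0.078 to 0.073 with a library left out, beside a gap of 0.01 between replicates. The median of all genes moved to 0.10 under total count scaling and -0.06 after removal of the GC trend.

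Calls at 2-fold were 4 higher and 1 lower. With at least 10 counts in every library, 1 was higher, as TRIM29, TRIM46 and TRIM73 were not tested. A fold of 1.5 gave 9 higher and 5 lower. Leaving out 1 library gave 4 to 6 higher and 1 to 2 lower at 2-fold, and 11 to 17 higher and 9 to 13 lower at the adjusted p. The log2 fold change of UBXN1 was then -2.13 to -1.94. Same-numbered replicates correlated by 0.04 in their deviations, so the numbers were not taken to pair the libraries. With the replicate block, 16 members were higher and 14 lower, 4 and 1 at 2-fold, and the median was -0.001. With 2 libraries per group the spread rests on information shared across genes, and the depth leaves the genes under 20 counts undescribed.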

Other observations

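TRIM symbols outside the rule added a few values. TRIM8-DT, a long noncoding RNA that starts beside TRIM8 on the other strand, had 48.5 and 71.7 counts in shCon and 122 and 125 in shUBXN1, a log2 fold change of 1.09 (SE 0.27, edgeR adjusted p = 0.00356), while TRIM8 itself was not called. Of the exon bases of TRIM8, 19.3% are overlapped by TRIM8-DT, and without a known use of strand their reads cannot be told apart there. The transcribed pseudogene TRIM16L had 4026 and 3407 counts in shCon and 2842 and 2999 in shUBXN1, a log2 fold change of -0.29 (SE 0.08, edgeR adjusted p = 0.00596). TRIM52-AS1 had 39.8 and 67.0 counts in shCon and 36.0 and 47.0 in shUBXN1 and was not called, and the groups overlapped.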
